A study of Homo sapiens with 12 samples.

Results

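The genes described here build ribosomes. They are 49 genes of RNA polymerase I (Pol I) transcription, ribosomal RNA (rRNA) processing and late subunit maturation and export, taken by name from the 58302 genes of the deposited table. All 49 were listed, and all 49 were among the 17150 genes with enough reads to test. By role, 11 belong to Pol I transcription, 30 to rRNA processing and 7 to late maturation and export, and MYC is a transcriptional regulator of the pathway.

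Polyadenylated RNA was sequenced from 2 human glioma cell lines, U251 and U87, in 12 libraries. The groups were U251 with 180 µM artesunate, U251 control, U87 with 24.08 µM artesunate and U87 control, with 3 libraries each; treatment lasted 24 h and the labels give day 9 for every library. Artesunate is a semisynthetic derivative of the antimalarial artemisinin; the extraction text names artemisinin instead, and the control cells are labelled with their culture medium alone, with no solvent named. Dose and line cannot be told apart, because each line received its own dose. Both are established lines, and nothing in the labels says that the 3 libraries of a group came from separate cultures, so p-values measure only the spread between these libraries.

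In the nucleolus, Pol I copies the ribosomal DNA repeats into a long precursor RNA. Small nucleolar ribonucleoproteins (snoRNPs) modify that precursor, and large assemblies of processing factors cut and fold it into the small and the large ribosomal subunit, which are finished on the way to the cytoplasm. MYC, with its partner MAX, activates many genes of this pathway and binds the E-box sequence CACGTG; high ribosome production is a known trait of fast-growing tumours. The libraries held polyadenylated RNA, so the values are mRNA levels of the factors, and rRNA itself, the product of Pol I, was not measured. In bulk samples, fewer cells of a type and less RNA per cell cannot be told apart.

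Libraries held between 13631985 and 17314284 counts. Correlations of log2 CPM between libraries of a group lay between 0.985 and 0.987, except in the U87 artesunate group, where they lay between 0.972 and 0.981. Of the glioma and astrocyte markers, VIM was at 3600 to 6680 CPM (library-scaled, TMM-normalised counts) and EGFR at 250 to 332 CPM in all 12 libraries. GFAP was at 46.2 to 94.8 CPM in U251 libraries and at 0.621 to 1.9 CPM in U87 libraries. SOX2 was at 224 to 262 CPM in U251 libraries and had no counts in U87 libraries. CD44 was at 1020 to 1260 CPM in U251 and 486 to 569 CPM in U87 libraries. S100B, scaled by library totals without TMM factors, was at 0.211 to 0.734 CPM in U251 and 0 to 0.289 CPM in U87 libraries. NES was at 126 to 158 CPM in U251 libraries, 10.6 to 14.2 CPM in U87 artesunate and 64 to 75.9 CPM in U87 control libraries. OLIG2 was at 0 to 0.25 CPM in U251 libraries, 6.56 to 8.62 CPM in U87 artesunate and 2.24 to 3.65 CPM in U87 control libraries. The CPM of 11 markers of immune, endothelial, epithelial, neuronal and oligodendrocyte cells was summed, scaled by library totals without TMM factors. The sum was 42.5 to 48 in U251 artesunate and 32.7 to 41.4 in U251 control libraries. It was 34.3 to 68 in U87 artesunate and 64.2 to 101 in U87 control libraries. SYT1 held most of the sum in U251 (31.6 to 43.9 CPM) and CD68 in U87. In U87, CD68 was at 22.2 to 54.1 CPM in artesunate and 54.5 to 92.2 CPM in control libraries, and SYT1 at 8.84 to 12.9 CPM in artesunate and 2.17 to 3.54 CPM in control libraries. AIF1 and MOG had no counts in any library. Their part in the results below was not tested.

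Promoters (250 bases before to 50 after the transcription start, RefSeq, GRCh38.p14) were available for 42 of the 49 genes. The E-box CACGTG, which reads the same on both strands, occurred in 12 of these 42 windows, or 28.6%, and in 2030 of 27305 windows of all genes, or 7.43%. Among genes with a window, 9 of 20 that fell with artesunate in U87 (45%), 1 of 13 that rose (7.69%) and 2 of 9 not called (22.2%) held it. These counts describe letters in a window and show no binding. The windows of all genes include genes not tested, and the share among all genes that fell or rose was not counted. With the GC and length correction described below, RRP9, NOP2 and BYSL, which held it, were no longer called lower. FBL, NOP10, NOP14, UTP14A, PES1 and MRTO4, which also held it, stayed lower. WDR43, the 1 that rose and held it, was no longer called. The 8 promoters below belong to the 5 genes with a window that fell most in U87 and the 3 that rose most, in order of size. UBTF, TAF1C and PPAN, the largest falls with a window, hold no E-box in it. FBL and NOP10, next in size, hold 1 and 2, in capitals, and RIOK2, TAF1D and RRN3, which rose, hold none. They lie at chr17:44220833-44221132 (UBTF), chr16:84187008-84187307 (TAF1C), chr19:10105973-10106272 (PPAN), chr19:39846330-39846629 (FBL), chr15:34343087-34343386 (NOP10), chr5:97183198-97183497 (RIOK2), chr11:93741446-93741745 (TAF1D) and chr16:15094286-15094585 (RRN3). PPAN is on the plus strand and the other 7 on the minus strand; all are written 5′ to 3′, and for UBTF, PPAN and RRN3 the first of 2 listed starts is shown. The E-box begins 6 bases after the start in FBL and 170 and 11 bases before it in NOP10.
UBTF: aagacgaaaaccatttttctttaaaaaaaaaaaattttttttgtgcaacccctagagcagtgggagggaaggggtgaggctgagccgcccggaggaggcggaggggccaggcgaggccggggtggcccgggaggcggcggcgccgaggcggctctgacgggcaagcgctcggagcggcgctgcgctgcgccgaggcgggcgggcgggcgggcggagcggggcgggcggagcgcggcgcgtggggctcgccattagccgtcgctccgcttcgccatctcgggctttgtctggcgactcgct
TAF1C: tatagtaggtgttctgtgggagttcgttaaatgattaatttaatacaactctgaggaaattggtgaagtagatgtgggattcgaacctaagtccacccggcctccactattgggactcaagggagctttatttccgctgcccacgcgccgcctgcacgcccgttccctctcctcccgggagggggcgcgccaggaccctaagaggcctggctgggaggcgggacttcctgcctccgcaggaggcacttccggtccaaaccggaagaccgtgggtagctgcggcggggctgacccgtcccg
PPAN: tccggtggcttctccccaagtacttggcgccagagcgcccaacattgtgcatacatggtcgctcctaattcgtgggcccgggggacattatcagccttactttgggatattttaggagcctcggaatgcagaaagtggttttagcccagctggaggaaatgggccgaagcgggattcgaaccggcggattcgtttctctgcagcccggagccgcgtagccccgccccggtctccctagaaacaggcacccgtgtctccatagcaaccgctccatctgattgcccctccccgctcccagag
FBL: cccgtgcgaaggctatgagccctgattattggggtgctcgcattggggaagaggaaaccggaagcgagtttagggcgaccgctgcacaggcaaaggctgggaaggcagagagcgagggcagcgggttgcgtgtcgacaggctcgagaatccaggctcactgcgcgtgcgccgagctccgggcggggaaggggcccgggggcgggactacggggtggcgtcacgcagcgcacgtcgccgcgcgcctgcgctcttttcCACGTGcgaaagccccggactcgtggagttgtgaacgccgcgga
NOP10: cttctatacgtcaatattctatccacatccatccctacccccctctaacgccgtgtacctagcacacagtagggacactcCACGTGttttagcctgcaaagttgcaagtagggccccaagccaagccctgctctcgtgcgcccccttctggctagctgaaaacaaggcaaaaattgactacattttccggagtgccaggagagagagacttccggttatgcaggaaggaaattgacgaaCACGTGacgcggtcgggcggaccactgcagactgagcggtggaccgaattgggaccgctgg
RIOK2: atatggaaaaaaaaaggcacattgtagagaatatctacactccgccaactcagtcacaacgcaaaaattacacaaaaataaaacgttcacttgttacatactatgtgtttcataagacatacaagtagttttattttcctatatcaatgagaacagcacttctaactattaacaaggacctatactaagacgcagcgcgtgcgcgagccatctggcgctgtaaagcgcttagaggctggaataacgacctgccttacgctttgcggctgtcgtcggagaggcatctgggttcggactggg
TAF1D: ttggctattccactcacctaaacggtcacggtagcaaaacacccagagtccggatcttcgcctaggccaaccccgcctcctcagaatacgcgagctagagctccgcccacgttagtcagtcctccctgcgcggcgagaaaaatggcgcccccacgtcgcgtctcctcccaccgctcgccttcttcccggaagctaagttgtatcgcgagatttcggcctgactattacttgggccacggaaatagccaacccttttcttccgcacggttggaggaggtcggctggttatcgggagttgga
RRN3: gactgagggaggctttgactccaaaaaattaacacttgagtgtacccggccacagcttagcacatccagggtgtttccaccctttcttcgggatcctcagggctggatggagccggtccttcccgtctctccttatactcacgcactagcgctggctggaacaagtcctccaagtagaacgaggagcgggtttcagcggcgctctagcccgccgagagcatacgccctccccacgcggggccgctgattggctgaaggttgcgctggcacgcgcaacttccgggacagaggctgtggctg

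In U87 cells, artesunate at 24.08 µM changed most of the 49 mRNAs, and in both directions. At an adjusted p under 0.05 (edgeR's quasi-likelihood test, Benjamini-Hochberg over all 17150 genes), 25 genes fell, 13 rose and 11 were not called. The background was high: 29.2% of all tested genes were called lower and 29.2% higher, or 58.3% in all. Among the 10152 genes whose mean level was at or above that of the lowest of the 49, 33.7% were called lower, 37.8% higher and 71.5% in all, against 51%, 26.5% and 77.6% of the 49. The share called was thus near that of similarly expressed genes. The median log2 fold change of the 49 was -0.41, against 0 for all genes; it was -0.34, -0.52 and -0.31 in the 3 artesunate libraries when each was set against the mean of the U87 controls. Of the 38 called genes, 37 had no overlap between the libraries of the groups; SBDS overlapped. Over all genes called in U87 the share without overlap was 95.6%.

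**Figure D1:**
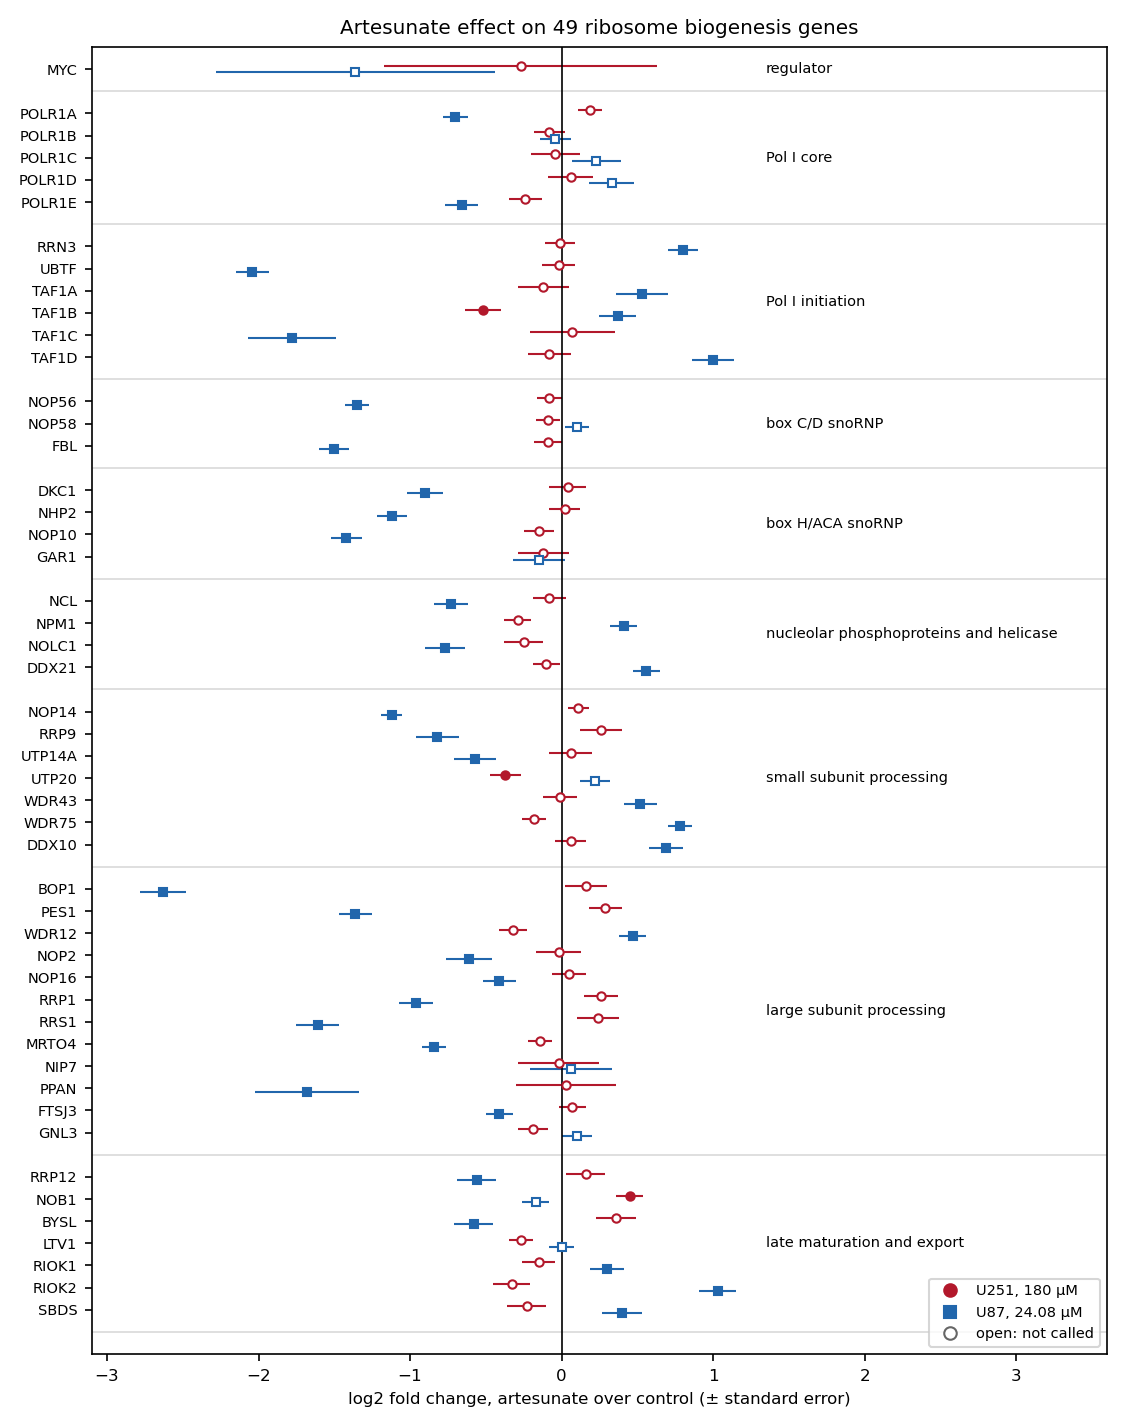
Log2 fold change of each of the 49 genes with artesunate over control (horizontal axis, bars are standard errors) in U251 (circles) and U87 (squares), grouped by role; filled symbols passed the adjusted p threshold of 0.05. In U87 the points spread between -2.63 (BOP1) and 1.03 (RIOK2), and in U251 between -0.52 (TAF1B) and 0.45 (NOB1).

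Of the 5 core genes of the Pol I enzyme, POLR1A and POLR1E fell in U87, and POLR1B, POLR1C and POLR1D were not called. POLR1A, the largest catalytic subunit, was at 93.5, 98.3 and 95.5 CPM in U87 artesunate libraries, against 145, 162 and 160 CPM in U87 control libraries. Every artesunate library was below every control library, and the log2 fold change was -0.70 ± 0.08 (SE, n = 3 each; edgeR adjusted p = 1.4e-05). POLR1E, another Pol I subunit, fell by 0.66 ± 0.11 on the log2 scale (edgeR adjusted p = 0.00036). POLR1B, the second largest subunit, was at 31.9, 24.6 and 29.6 CPM with artesunate, against 29.9, 28 and 30.6 CPM in controls, and the groups overlapped. POLR1C and POLR1D, which Pol I shares with Pol III, had log2 fold changes of 0.23 ± 0.16 and 0.33 ± 0.15; POLR1D was called without the second U87 artesunate library (0.45).

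Factors that start Pol I transcription split. UBTF, which binds along ribosomal DNA and keeps it open, fell most among the 6 of them. It was at 30.6, 39.2 and 29.9 CPM in U87 artesunate libraries, against 125, 142 and 143 CPM in U87 control libraries, which is 4.12-fold lower. The lowest control library was far above the highest artesunate library (log2 fold change -2.04 ± 0.11, edgeR adjusted p = 1.1e-07). RRN3, which brings competent Pol I to the promoter, moved the other way: 113, 86.9 and 103 CPM with artesunate, against 60.4, 57.9 and 55.6 CPM in controls. That is a log2 fold change of 0.80 ± 0.10 (edgeR adjusted p = 2.7e-05), with no overlap. Of its pseudogenes, RRN3P1, RRN3P2 and RRN3P3 are listed in the table with 0 to 78 counts in the U87 libraries, and reads shared with them could not be separated here.

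TAF1A, TAF1B, TAF1C and TAF1D encode subunits of the factor that recognises the ribosomal DNA promoter, and they did not move together. After the GC and length correction described below, TAF1C (-0.69) stayed lower, while TAF1A (0.15), TAF1B (-0.14) and TAF1D (0.29) were not called. TAF1C was at 5.76, 15.6 and 7.69 CPM in U87 artesunate libraries, against 28.8, 34.8 and 36 CPM in U87 control libraries (log2 fold change -1.78 ± 0.29, edgeR adjusted p = 0.00023). TAF1D was at 68.5, 43.2 and 56.9 CPM with artesunate, against 30.7, 26.8 and 27 CPM in controls (1.00 ± 0.14, edgeR adjusted p = 1e-04). In both genes the second artesunate library stood nearest to the controls. TAF1A and TAF1B rose by less, with log2 fold changes of 0.53 ± 0.17 and 0.37 ± 0.12. TAF1A was not called without the third artesunate (0.37) or second control library (0.45), and TAF1B without the second (0.30) or the third control library (0.31). TAF1A has an antisense gene, TAF1A-AS1, whose reads could be separated only in stranded libraries.

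**Figure D2:**
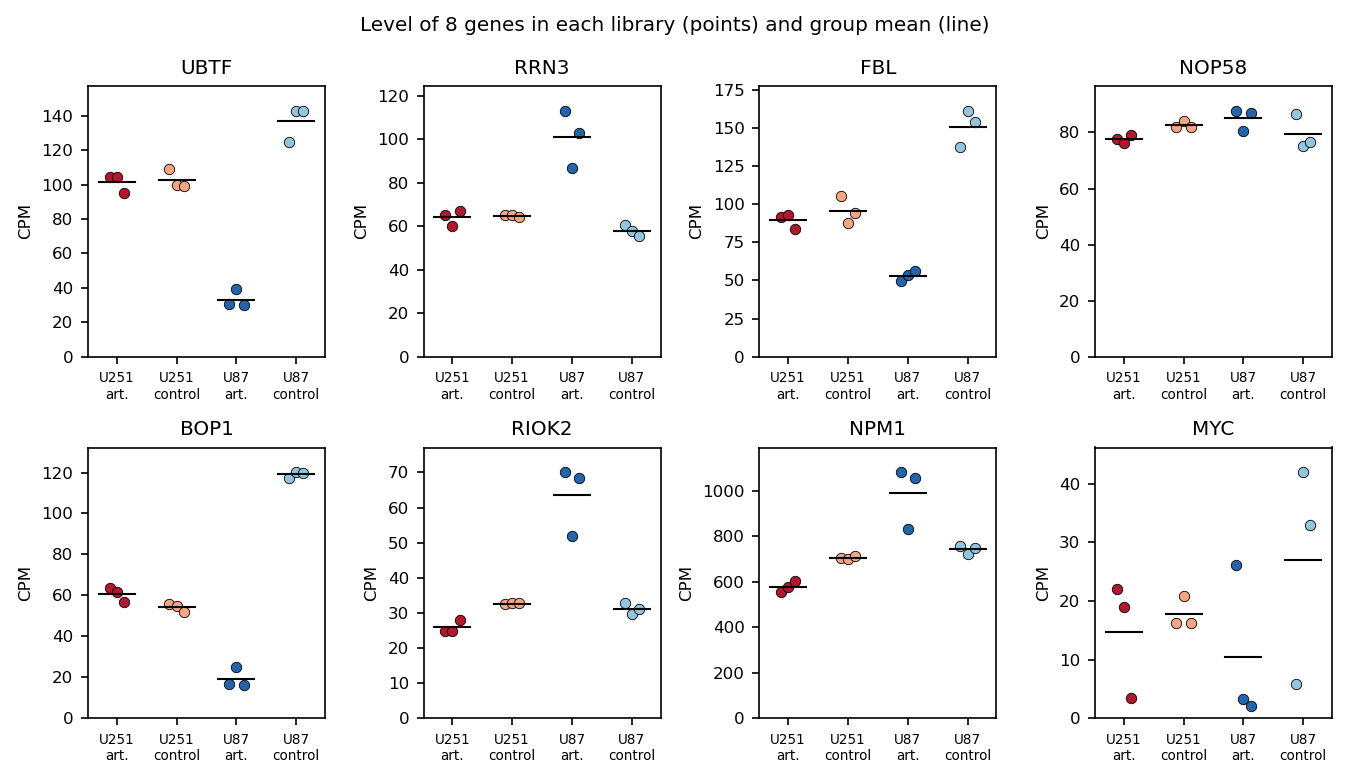
Level of 8 genes in CPM (vertical axis, from 0) in each library (points), with the group mean (line), for U251 artesunate, U251 control, U87 artesunate and U87 control. UBTF, FBL and BOP1 are lower and RRN3 and RIOK2 higher in U87 artesunate than in every U87 control library, NOP58 overlaps between the U87 groups, and MYC varies within groups, from 2.12 to 26.2 CPM in U87 artesunate.

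Both classes of snoRNP proteins fell in U87, apart from 1 gene of each class that was not called. Box C/D snoRNPs guide ribose methylation, and FBL (fibrillarin) is their methyltransferase. FBL was at 50, 53.3 and 56.3 CPM in U87 artesunate libraries, against 137, 161 and 154 CPM in U87 control libraries, with no overlap. Its log2 fold change was -1.50 ± 0.10 (edgeR adjusted p = 3.2e-07), and its promoter, printed above, holds the E-box. NOP56, a core scaffold protein of the particle, was at 27.3, 24.6 and 27.8 CPM, against 65.9, 69 and 68.4 CPM in controls (-1.35 ± 0.08, edgeR adjusted p = 1.6e-07). Its paralogue NOP58 was at 87.8, 80.6 and 87 CPM, against 86.7, 75.3 and 76.6 CPM in controls, and the groups overlapped (0.10 ± 0.08).

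Box H/ACA snoRNPs guide the conversion of uridine to pseudouridine. DKC1 (dyskerin), their enzyme, was at 44.7, 32.9 and 41.1 CPM in U87 artesunate libraries, against 68.6, 78.7 and 74.1 CPM in U87 control libraries (log2 fold change -0.90 ± 0.12, edgeR adjusted p = 5.7e-05). NOP10, a small protein that holds the particle together, was at 33.9, 31.6 and 29.7 CPM, against 74.1, 92.8 and 86.8 CPM in controls (-1.42 ± 0.10, edgeR adjusted p = 5.4e-07). NHP2 fell by 1.12 ± 0.10 on the log2 scale, and GAR1 was not called (-0.15 ± 0.17). The median over these 4 genes was -1.01, and in the 3 called genes no artesunate library reached the level of a control library.

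The abundant nucleolar proteins divided evenly before the GC and length correction described below. After it, NPM1 (0.07) and DDX21 (0.07) were not called, while NCL (-0.86) and NOLC1 (-0.86) stayed lower. NCL (nucleolin), a phosphoprotein that binds precursor rRNA, was at 450, 321 and 433 CPM in U87 artesunate libraries, against 659, 662 and 673 CPM in U87 control libraries (log2 fold change -0.73 ± 0.11, edgeR adjusted p = 0.00012). NPM1 (nucleophosmin), a chaperone of the granular nucleolus, was at 1081, 830.1 and 1053 CPM, against 757.9, 720.9 and 749.4 CPM in controls (0.41 ± 0.09, edgeR adjusted p = 0.0021). NCL was therefore lower, and NPM1 higher, in every artesunate library than in every control library; NPM1 has many processed copies in the genome whose reads could be shared with it. NOLC1, a chaperone of snoRNPs, fell by 0.77 ± 0.13 on the log2 scale, and the RNA helicase DDX21 rose by 0.56 ± 0.09.

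The small subunit processome, which assembles on the precursor and makes its early cuts, gave 3 genes that fell and 3 that rose among 7. After the GC and length correction described below, WDR43 (0.01), WDR75 (0.13) and DDX10 (0.13) were not called. NOP14 (-0.94) and UTP14A (-0.61) then stayed lower, and RRP9 was called higher (0.24). NOP14 was at 52.1, 49.5 and 49.9 CPM in U87 artesunate libraries, against 108, 110 and 111 CPM in U87 control libraries (log2 fold change -1.12 ± 0.07, edgeR adjusted p = 2.1e-07); an antisense gene overlaps it. RRP9 and UTP14A fell by 0.82 ± 0.14 and 0.57 ± 0.14 on the log2 scale, and UTP14A has a close copy, UTP14C, with 242 to 484 counts in the U87 libraries. WDR75, a protein of the processome that also helps Pol I transcription, was at 119, 106 and 123 CPM, against 69.2, 66.8 and 67.4 CPM in controls (0.78 ± 0.08, edgeR adjusted p = 1.2e-05). The helicase DDX10 was at 33.2, 28.9 and 38.8 CPM, against 21.2, 20.6 and 20.7 CPM in controls (0.69 ± 0.11, edgeR adjusted p = 0.00017). WDR43 also rose (0.52 ± 0.11), and UTP20 was not called (0.22 ± 0.10); it was called higher without the second U87 artesunate library (0.27) and lower with the GC and length correction described below (-0.26).

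Large subunit processing had the most genes that fell, 9 of 12, with a median log2 fold change of -0.72; it also had the highest median GC content, and 4 of the 9 falls (BOP1, PES1, RRS1 and MRTO4) were still called with a correction for GC content and length described below. BOP1 was at 16.8, 25 and 16.1 CPM in U87 artesunate libraries, against 117.5, 120.2 and 119.6 CPM in U87 control libraries, which is 6.18-fold lower. Its log2 fold change of -2.63 ± 0.15 (edgeR adjusted p = 1.1e-07) was the largest of the 49 genes, and the groups were far apart. BOP1 forms a complex with PES1 and WDR12 that is needed to process the large subunit rRNA. PES1 was at 56.6, 78.5 and 63.3 CPM, against 164, 179 and 166 CPM in controls (-1.36 ± 0.11, edgeR adjusted p = 1.5e-06). WDR12, the remaining partner, was at 97.5, 81.9 and 98.1 CPM, against 71.5, 63 and 65.4 CPM in controls (0.47 ± 0.09, edgeR adjusted p = 0.00098). In these libraries the 3 mRNAs of this complex thus moved in different directions without the correction. With it, WDR12 (-0.10) was not called, while BOP1 (-1.14) and PES1 (-0.55) stayed lower.

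RRS1, which helps bring the small 5S particle into the large subunit in yeast, was at 20.8, 23.3 and 15.8 CPM in U87 artesunate libraries, against 57, 64.7 and 61 CPM in U87 control libraries (log2 fold change -1.61 ± 0.14, edgeR adjusted p = 2.6e-06). RRP1 fell by 0.96 ± 0.11 and MRTO4, which precedes a stalk protein on the maturing subunit, by 0.84 ± 0.08 on the log2 scale. NOP2, an rRNA methyltransferase, fell by 0.61 ± 0.15, NOP16 by 0.41 ± 0.11 and the methyltransferase FTSJ3 by 0.41 ± 0.09. With the correction, RRP1 (0.11), NOP2 (0.01), NOP16 (0.03) and FTSJ3 (0.00) were not called. NIP7 and the nucleolar GTPase GNL3 (nucleostemin) were not called, with log2 fold changes of 0.06 ± 0.27 and 0.10 ± 0.10. NIP7 varied between 30.1 and 66 CPM among the artesunate libraries.

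PPAN, a large subunit factor, needs its neighbour beside it, because the annotation also lists a read-through gene, PPAN-P2RY11, over the same exons. PPAN had 165, 294 and 171 counts in U87 artesunate libraries, against 477, 993 and 888 counts in U87 control libraries. PPAN-P2RY11 had 0, 0 and 92 counts in U87 artesunate and 459, 0 and 4 counts in U87 control. In the first U87 control library nearly as many reads were thus given to the read-through gene as to PPAN. Summed over both, the counts were 165, 294 and 263 with artesunate, against 936, 993 and 892 in controls. The sum, an alternative chosen after seeing the data, gave a log2 fold change of -1.74 (edgeR adjusted p = 9.3e-06), and PPAN alone gave -1.68 ± 0.34 (edgeR adjusted p = 0.0012).

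**Figure D3:**
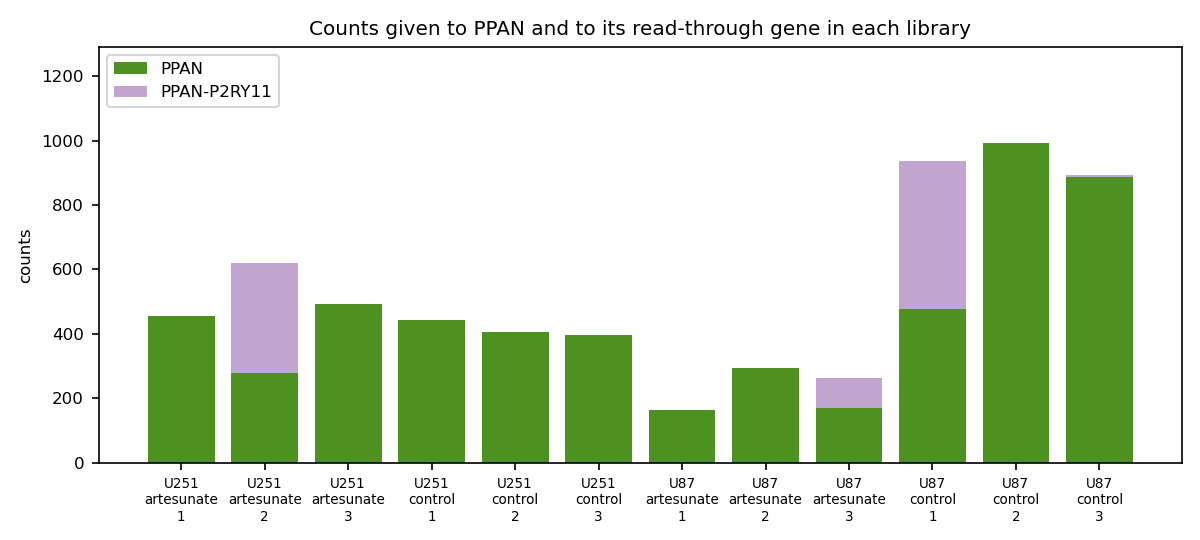
Counts in each of the 12 libraries (vertical axis) given to PPAN (green) and to the read-through gene PPAN-P2RY11 (purple), stacked. The second U251 artesunate library (279 and 342) and the first U87 control library (477 and 459) divide their counts between the genes, while in most other libraries PPAN holds all or nearly all of them.

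The 7 genes of late maturation and export gave 3 that rose, 2 that fell and a median of 0. After the GC and length correction described below, RIOK2 (0.33) stayed higher, while RIOK1 (0.04), SBDS (-0.01) and BYSL (0.13) were not called. RRP12 (0.26) and NOB1 (0.30) were then called higher and LTV1 (-0.41) lower. RIOK2, a kinase that acts on the late small subunit precursor, was at 70.1, 51.9 and 68.5 CPM in U87 artesunate libraries, against 32.8, 29.7 and 31.1 CPM in U87 control libraries (log2 fold change 1.03 ± 0.12, edgeR adjusted p = 1.6e-05). Every artesunate library was above every control library, and this was the largest rise of the 49 genes. The related kinase RIOK1 rose by a log2 fold change of 0.30 ± 0.11 (edgeR adjusted p = 0.042), a call lost without any 1 of the 12 libraries except the second U87 artesunate library (0.18 to 0.31). BYSL and RRP12, an export factor, fell by 0.58 ± 0.13 and 0.56 ± 0.13 on the log2 scale. SBDS, which helps free the large subunit for translation, was at 143, 93.2 and 126 CPM, against 97.2, 91.1 and 86 CPM in controls (0.40 ± 0.13, edgeR adjusted p = 0.019). The SBDS groups overlapped, and its call was lost without the first (0.26) or the third (0.34) artesunate library or the third control library (0.33). NOB1, the nuclease of the final small subunit cut, and LTV1 were not called, with log2 fold changes of -0.17 ± 0.09 and 0.00 ± 0.08; NOB1 was called without the third artesunate (-0.26) or first control library (-0.24). SBDS has a transcribed pseudogene, SBDSP1, with 369 to 523 counts in the U87 libraries.

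MYC was the least even of the 49 genes between libraries. It was at 26.2, 3.21 and 2.12 CPM in U87 artesunate, 5.89, 41.9 and 32.9 CPM in U87 control, 22, 18.9 and 3.4 CPM in U251 artesunate and 16.3, 20.9 and 16.3 CPM in U251 control libraries. In U87 the first artesunate library was high and the first control library low, and the groups overlapped. The log2 fold change was -1.36 ± 0.92 in U87 (edgeR adjusted p = 0.22) and -0.27 ± 0.90 in U251 (edgeR adjusted p = 0.91), both not called. Without the first U87 artesunate library the U87 value was -3.33 (edgeR adjusted p = 0.01), so that single library decided the call; without the third U251 artesunate library the U251 value was 0.20.

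The U87 response of these genes varied with the base composition of their transcripts. GC content was taken from the longest annotated transcript (GENCODE 29) and the tested genes were divided into 5 bins of equal gene number. Of the 18 genes of the pathway in the lowest 2 bins (23.1 to 45.4% GC), 13 rose and the other 5 were not called, where 52.6% of all genes rose and 7.07% fell. Of the 31 in the upper 3 bins (45.4 to 83.9%), 25 fell and the other 6 were not called, where 13.6% of all genes rose and 44% fell. The Pearson correlation of the log2 fold change with GC content was -0.85 over the 49 genes and -0.58 over all 17089 genes with a GC value. In U251 it ran the other way, at 0.65 and 0.29. These are correlations across genes of the same libraries, which are not independent replicates, and are given as a description.

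**Figure D4:**
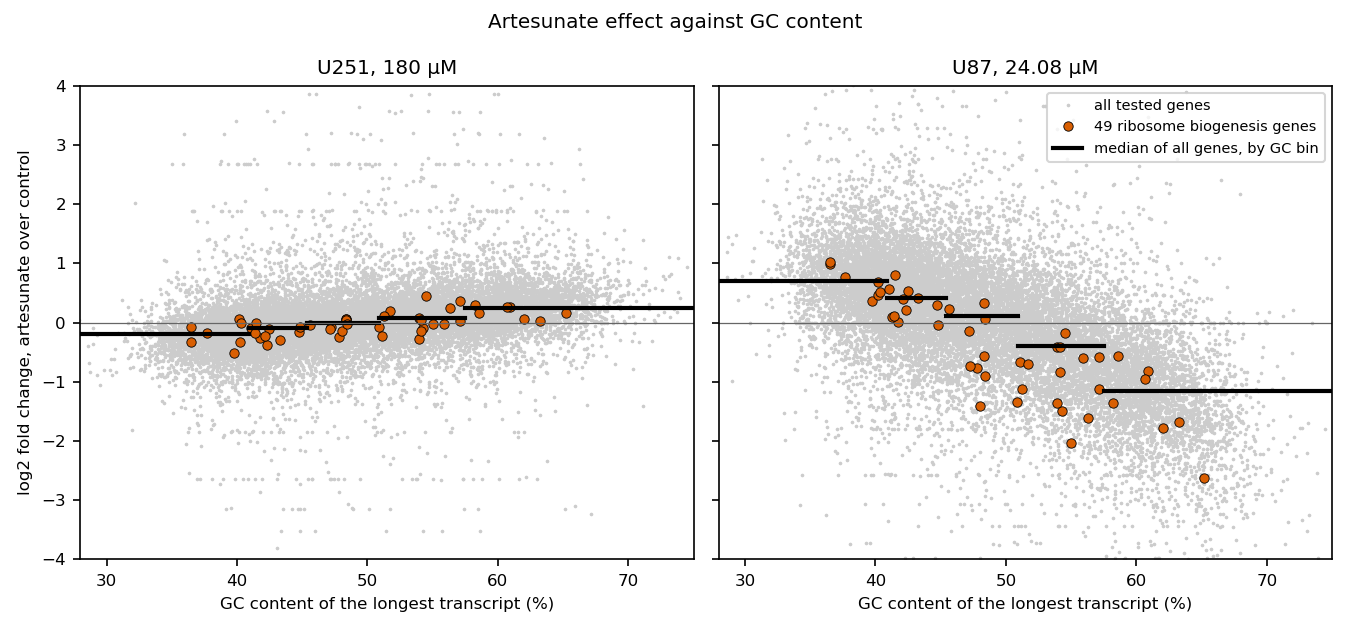
Log2 fold change with artesunate (vertical axis) against the GC content of the longest transcript in percent (horizontal axis) for all tested genes (grey), the 49 genes (orange) and the median of all genes in each of 5 GC bins (black lines), in U251 and U87. In U87 the orange points run from above 0 at low GC to below 0 at high GC, along with the grey points; 49 grey points in U251 and 111 in U87 lie outside the axes.

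The slope was present in each U87 artesunate library. Each artesunate library was set against the mean of its line's controls, and each control library against the mean of the other controls of its line. The correlation with GC over all genes was then -0.64, -0.49 and -0.62 in the U87 artesunate libraries. It was -0.24, 0.17 and 0.08 in the U87 control libraries. In U251 it was 0.35, 0.36 and 0.19 with artesunate and 0.08, -0.02 and -0.06 in controls. The roles differ in composition: the median GC was 55% for large subunit processing, against 42% for Pol I initiation and 42.3% for small subunit processing. Whether the slope belongs to the cells or to the preparation of the libraries was not tested.

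The U87 fit was repeated with each library's dependence on GC and length removed by a smooth curve. Then 22 of the 49 genes were called lower and 5 higher, the median was -0.26, and 45.7% of all genes were called. Of the 25 falls 17 were still called lower and of the 13 rises 2 were still called higher; 17 calls were lost, and RRP9 and RRP12 were called in the other direction (0.24 and 0.26). The falls that stayed included UBTF (-1.57, edgeR adjusted p = 2.1e-08), NOP10 (-1.48), NOP56 (-1.20), BOP1 (-1.14), FBL (-1.06), RRS1 (-0.97), DKC1 (-0.94), NCL (-0.86) and POLR1A (-0.58). RRN3 (0.35, edgeR adjusted p = 0.0011) and RIOK2 (0.33, edgeR adjusted p = 0.0058) were the rises that stayed. The lost rises were TAF1A (0.15), TAF1B (-0.14), TAF1D (0.29), NPM1 (0.07), DDX21 (0.07), WDR43 (0.01), WDR75 (0.13), DDX10 (0.13), WDR12 (-0.10), RIOK1 (0.04) and SBDS (-0.01). The lost falls were PPAN (-0.40), BYSL (0.13), RRP1, NOP2, NOP16 and FTSJ3. Not called before, POLR1B (-0.33), NOP58 (-0.34), UTP20 (-0.26), GNL3 (-0.33) and LTV1 (-0.41) were called lower and NOB1 (0.30) higher; of these, POLR1B and NOB1 were below 0 and NOP58, UTP20 and GNL3 above 0 without the correction.

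In U251 cells, artesunate at 180 µM gave calls for 3 of these mRNAs, 1 higher and 2 lower, or 6.12% of the 49. In 21 of the 49 (42.9%) the libraries of the groups did not overlap, against 36.8% of all tested genes. The background was 4.09% higher and 4.26% lower, or 8.34% in all, and 11.9% among genes at or above the level of the lowest of the 49. The median log2 fold change was -0.04, and -0.05, -0.04 and -0.06 in the 3 artesunate libraries. NOB1 was at 67.9, 70 and 65.5 CPM in U251 artesunate libraries, against 50.5, 49.7 and 48.6 CPM in U251 control libraries (0.45 ± 0.09, edgeR adjusted p = 0.01). TAF1B was at 20.8, 17.6 and 21.7 CPM, against 27, 28.9 and 30 CPM in controls (-0.52 ± 0.12, edgeR adjusted p = 0.022). UTP20, a scaffold of the small subunit processome, was at 72.8, 80.4 and 93.5 CPM, against 104, 108 and 108 CPM in controls (-0.37 ± 0.10, edgeR adjusted p = 0.045). The groups of all 3 genes did not overlap.

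The calls of TAF1B and UTP20 were each lost without any 1 of 5 of the 6 U251 libraries, that is all but the third artesunate library, with values between -0.43 and -0.55 for TAF1B and between -0.30 and -0.38 for UTP20. Both were also lost with no filter on low counts (-0.49 for TAF1B and -0.35 for UTP20), and TAF1B with the GC and length correction (-0.32, edgeR adjusted p = 0.057). UTP20 was also lost without the third U87 artesunate library or the second or the third U87 control library (-0.36 to -0.38). The genes that led the U87 response were not called in U251. UBTF was at 105, 105 and 95.1 CPM in U251 artesunate libraries, against 109, 99.9 and 99.4 CPM in U251 control libraries (log2 fold change -0.02 ± 0.11). FBL was at 91.7, 92.9 and 84 CPM, against 105, 87.3 and 94.2 CPM in controls (-0.09 ± 0.09), and RRN3 at 65, 60.2 and 67.2 CPM, against 65, 65.2 and 64.1 CPM (-0.01 ± 0.10). BOP1 was at 63.4, 61.9 and 56.6 CPM, against 55.9, 55 and 52 CPM in controls (0.16 ± 0.14). POLR1A (0.19 ± 0.08), POLR1B (-0.08 ± 0.10), DKC1 (0.04 ± 0.12), NCL (-0.08 ± 0.11), NPM1 (-0.29 ± 0.09) and SBDS (-0.23 ± 0.13) were not called either; NPM1 was called without the second U87 artesunate library (-0.29), as were PES1 (0.29), WDR12 (-0.33), LTV1 (-0.27) and RIOK2 (-0.34). WDR12 was also called without the first U87 control library (-0.33). NPM1, WDR12 and LTV1 were also called lower with library totals without TMM factors, with DESeq2 and with log2(FPKM + 1) of filtered genes. With only the U251 libraries, NPM1, WDR12, LTV1, RIOK2 and SBDS were called lower and PES1 higher.

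The artesunate effects of the 2 lines were compared in an interaction test (U251 effect minus U87 effect), in which a positive value means a higher log2 fold change in U251. The effect differed for 40 genes, or 81.6% of the 49, with 26 positive and 14 negative. The background was 24.1% positive and 25.3% negative, or 49.4% in all. Among genes at or above the mean level of the lowest of the 49, it was 29.7% and 34.5%, or 64.2% in all. The median was 0.49, against -0.05 for all genes. The largest positive differences were BOP1 (2.79 ± 0.20, edgeR adjusted p = 2.5e-06), UBTF (2.02 ± 0.16, edgeR adjusted p = 4.1e-06), RRS1 (1.85 ± 0.20), TAF1C (1.84 ± 0.40) and PPAN (1.71 ± 0.47). The largest negative ones were RIOK2 (-1.36 ± 0.16, edgeR adjusted p = 5.3e-05), TAF1D (-1.08 ± 0.20), WDR75 (-0.96 ± 0.12), TAF1B (-0.89 ± 0.17) and RRN3 (-0.81 ± 0.14). MYC (1.09 ± 1.28) and POLR1B (-0.04 ± 0.15) were not called; MYC was called without the first U87 artesunate library (3.06). With the GC and length correction, 17 genes had a positive and 1 a negative difference, and the median was 0.14. Over all genes with a GC value, 2431 were then positive and 2714 negative of 17089 (30.1% called). RRN3, TAF1B, TAF1C, TAF1D, WDR75, PPAN, NPM1 and SBDS were among those that then no longer passed.

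Without artesunate, 57.1% of the 49 genes differed between the lines, against 67.6% of all genes at or above the mean level of the lowest of the 49. Among the 49, 9 were higher and 19 lower in U251 control than in U87 control, against a background of 32.5% higher and 32.3% lower (64.8% in all). In rRNA processing, which holds 30 of the 49 genes, 15 were lower and 2 higher, and with the GC and length correction 11 and 4. Pol I transcription gave 3 lower and 4 higher, and late maturation and export 1 and 3. RRP1, a large subunit factor, was at 25.8, 25.6 and 21.8 CPM in U251 control libraries, against 63, 74.9 and 69.3 CPM in U87 control libraries (log2 fold change -1.50 ± 0.11, edgeR adjusted p = 2.3e-07). RRS1 (-1.49 ± 0.14), PES1 (-1.43 ± 0.11), BOP1 (-1.13 ± 0.14) and PPAN (-0.84 ± 0.33) followed. RIOK1 was at 26.1, 27.7 and 27.2 CPM in U251 control libraries, against 10.4, 9.43 and 10.8 CPM in U87 control libraries (1.40 ± 0.11, edgeR adjusted p = 5.5e-07). DDX10 (1.05 ± 0.11), POLR1E (0.90 ± 0.11), SBDS (0.89 ± 0.13) and TAF1D (0.89 ± 0.14) were higher too. With the GC and length correction 17 of the 28 calls between controls were kept, 11 were lost and 9 were gained; TAF1D (0.27) and PPAN (-0.24) were lost, DDX10 was 0.53, and 66.6% of all genes were called. The PPAN groups overlapped, and its call was lost without any 1 of the U251 control libraries, without the second or the third U87 control library and without the third U251 artesunate library (-0.64 to -0.95); summed with the read-through gene it was -1.09 (edgeR adjusted p = 2e-04).

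Per transcript length, on the authors' FPKM scale, the same 3 genes were highest in both control groups. NPM1 averaged 108 ± 1.25 FPKM in U251 control and 116 ± 4.1 FPKM in U87 control (SD, n = 3 each), NOP10 93.1 ± 2.24 and 87.6 ± 9.41 FPKM, and NCL 64.3 ± 3.43 and 68.2 ± 1.31 FPKM. At the low end stood TAF1C, with 0.851 ± 0.138 FPKM in U251 control and 1.44 ± 0.167 FPKM in U87 control.

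**Figure D5:**
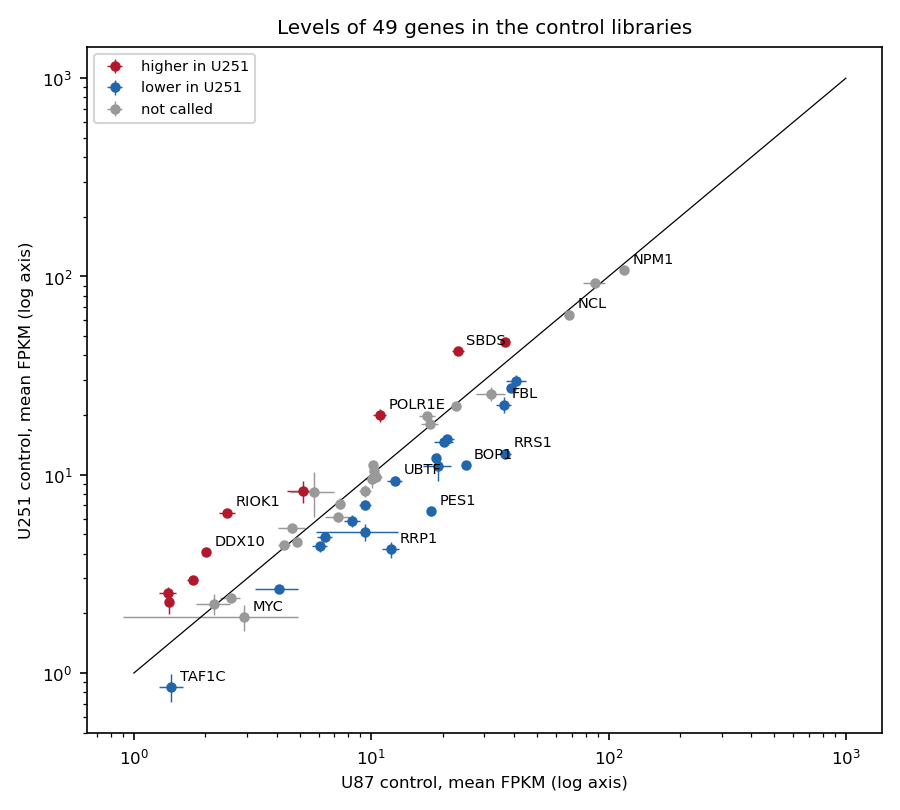
Mean FPKM of the 49 genes in U251 control libraries (vertical, log axis) against U87 control libraries (horizontal, log axis), with standard deviations over 3 libraries as bars; red genes are called higher and blue genes lower in U251, grey genes are not called, and the line marks equal levels. RIOK1, DDX10, POLR1E and SBDS lie above the line, RRP1, PES1, BOP1 and RRS1 below it, and NPM1 and NCL close to it at the top.

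The rest of the machinery was read from 128 further ribosome biogenesis genes. In U251, 2 rose and 8 fell, with a median log2 fold change of -0.07. Of all tested genes 4.09% rose and 4.26% fell there. In U87, 46 rose and 50 fell, with a median of 0, against 29.2% higher and 29.2% lower of all tested genes. This larger list thus did not show the downward median of the 49 genes, but the GC content of the 2 lists was not compared. It counts PPAN-P2RY11, the read-through gene over the exons of PPAN, as a large subunit factor. The list also holds the 5 subunits that Pol I shares with Pol II and Pol III. Of these, 1 rose and 1 fell in U251, and 1 rose and 4 fell in U87. Other small subunit factors gave 13 that rose and 15 that fell of 39 in U87, other large subunit factors 13 and 17 of 40, the exosome and trimming enzymes 8 and 4 of 16, and export and cytoplasmic factors 6 and 5 of 12. In U251 the same lists gave, for genes that fell, 4 small subunit factors, 1 large subunit factor, 1 exosome gene and 1 export and cytoplasmic factor.

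Among other Pol I genes, TCOF1 (treacle), which works with UBTF at ribosomal DNA, fell by 1.54 ± 0.15 on the log2 scale in U87 (edgeR adjusted p = 5.1e-06) and had 0.05 ± 0.15 in U251. TWISTNB, a Pol I subunit, rose in U87 (0.67 ± 0.10, edgeR adjusted p = 0.00014), TTF1, the Pol I termination factor, was not called in U87 (0.14 ± 0.13) or U251 (-0.45 ± 0.13, edgeR adjusted p = 0.063), and BAZ2A, which silences ribosomal DNA, rose in U251 (0.47 ± 0.10, edgeR adjusted p = 0.016). Of the 5 subunits shared by the 3 polymerases, 4 fell in U87, led by POLR2L (-2.10 ± 0.14, edgeR adjusted p = 3.8e-07), while POLR2K rose (0.61 ± 0.08). In U251 both moved the other way: POLR2L rose (0.81 ± 0.13, edgeR adjusted p = 0.0038) and POLR2K fell (-0.40 ± 0.08, edgeR adjusted p = 0.0095); with the GC and length correction neither was called in U251 (0.61 and -0.11). Pol II subunits gave 3 that rose (POLR2B, 0.73 ± 0.10) and 3 that fell (POLR2J, -2.20 ± 0.17) of 8 in U87. Pol III genes gave 2 that rose (BDP1, 0.76 ± 0.12) and 4 that fell (MAF1, a Pol III repressor, -1.18 ± 0.17) of 14; in U251, 2 of them rose, with POLR3E at 0.53 ± 0.12. The U251 calls of BAZ2A and POLR3E were lost without the first or the second artesunate library or the third control library, BAZ2A also without the first and POLR3E without the second control library (BAZ2A 0.45 to 0.47, POLR3E 0.47 to 0.54), and TTF1 was called without the second U87 artesunate library (-0.45).

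Single processing and export factors spanned a wide range in U87. RSL24D1, a large subunit factor, rose (1.94 ± 0.11, edgeR adjusted p = 1.7e-07) and NOC2L fell (-1.64 ± 0.12). The small subunit factors DDX52 and NOC4L had 1.23 ± 0.12 and -1.85 ± 0.14. Of the exosome, EXOSC6 rose (1.48 ± 0.07) and EXOSC4 fell (-1.36 ± 0.20). Of the snoRNP assembly genes, 4 rose and 3 fell of 10, led by ZNHIT6 (0.92 ± 0.16) and RUVBL2 (-1.47 ± 0.10). XPO1, the exporter of both subunits, and NMD3, its adaptor for the large subunit, rose (0.72 ± 0.10 and 0.66 ± 0.10), DIMT1 rose (0.78 ± 0.09) and PA2G4 fell (-1.17 ± 0.08). In U251, MPHOSPH10 (-0.49 ± 0.10), BRIX1 (-0.38 ± 0.10), EXOSC10 (-0.39 ± 0.07) and DIMT1 (-0.42 ± 0.09) fell, and XPO1 (-0.30 ± 0.09) and NMD3 (-0.19 ± 0.10) were not called. Single libraries decided several of these U251 calls: BRIX1 was lost without any 1 of the 6 U251 libraries or the third U87 control library (-0.374 to -0.405), DIMT1 without the first or the second artesunate or the second or the third control library (-0.39 to -0.41), and MPHOSPH10 without the first artesunate (-0.46) or first control library (-0.45). XPO1 was called without the first or the second U87 control library (-0.304 and -0.305). With the GC and length correction, XPO1, NMD3, POLR2K, MAF1, BDP1, TWISTNB and ZNHIT6 (0.25) were no longer called in U87, and MPHOSPH10 (-0.32), BRIX1 (-0.16), DIMT1 (-0.19) and POLR3E (0.32) no longer in U251.

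Among partners and antagonists of MYC, 3 rose and 5 fell of the 10 tested in U87. MXD1, a repressor that competes with MYC for MAX, rose (2.34 ± 0.19, edgeR adjusted p = 1.3e-06). MNT, another such repressor, fell in U87 (-1.29 ± 0.11, edgeR adjusted p = 2.4e-06) and rose in U251 (0.76 ± 0.11, edgeR adjusted p = 0.0019). MAX (0.12 ± 0.26 in U87, 0.34 ± 0.28 in U251) and MXI1 (0.58 ± 0.48 and 1.20 ± 0.50) were not called in either line. The MNT value in U87 was no longer called with the GC and length correction.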

How the data were processed

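RNA was sequenced from 12 libraries, grouped by their labels. Per the labels' design text, reads were cleaned with fastp, aligned with HISAT2 2.1.0 to GRCh38, quantified with StringTie 1.3.3b and TMM-normalised; strandedness is not given in the sources used here. The deposited table holds the authors' counts per gene and the authors' FPKM values; their comparison columns were not used. Tests used the counts with edgeR 4.0.16 (R 4.3.3): filterByExpr (minimum count 10, minimum total 15), TMM factors, 1 mean per group over all 12 libraries and glmQLFTest, tested on simulated data. The CPM values here are TMM-normalised from the deposited counts. Library totals set the counting precision. The common biological coefficient of variation, which measures the spread between libraries beyond counting noise, was 0.183. Replicates differed by more than counting noise. GC and length came from the longest GENCODE 29 transcript for 99.64% of tested genes; mgcv 1.9.3 smooths per library served as offsets. Alternatives were RLE factors, library totals, no filter, DESeq2 1.42.0, limma-trend 3.58.1 on log2(FPKM + 1) and log2(FPKM + 0.1) for genes over 1 FPKM in 3 libraries, only the groups compared, a replicate block and leaving out each library. The members and lists were chosen with earlier results of these data known. Named genes were, in each comparison, the 5 called genes of largest change in each direction and MYC, RRN3, UBTF, POLR1A, POLR1B, FBL, DKC1, NCL, NPM1 and SBDS; from each further list in each line, the called gene of smallest p in each direction and TTF1, TCOF1, XPO1, NMD3, MAX and MXI1. Other genes of the 49 are named by role after their values were seen. Values are mRNA levels relative to all genes; with TMM a change of total RNA per cell is not seen.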

Additional observations from a re-analysis of the deposited data

Results flagged for a closer look

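The artesunate effect differed between the lines, by the interaction test (edgeR, U251 effect minus U87 effect), for 16 of the genes singled out above. BOP1, UBTF, RRS1, TAF1C, PPAN, RIOK2, TAF1D, WDR75, TAF1B and RRN3 were chosen as the largest called differences in this same test. Their passing was thus fixed by the choice. Of all tested genes 49.4% were called in it, and 64.2% of those at or above the mean level of the lowest of the 49. Genes of Pol I transcription were UBTF (2.02), TAF1C (1.84), POLR1A (0.89), RRN3 (-0.81), TAF1B (-0.89) and TAF1D (-1.08). Genes of snoRNPs and abundant nucleolar proteins were FBL (1.41), DKC1 (0.94), NCL (0.65) and NPM1 (-0.70). Processing and late maturation genes were BOP1 (2.79), RRS1 (1.85), PPAN (1.71), SBDS (-0.63), WDR75 (-0.96) and RIOK2 (-1.36). With the GC and length correction RRN3, TAF1B, TAF1C, TAF1D, NPM1, PPAN, SBDS and WDR75 no longer passed. Positive values mean a higher log2 fold change in U251. These differences join a change of line with a change of dose, and the shares of each cannot be told apart.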

How the results depend on the processing

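In U87 the number of the 49 genes called higher (13) became 5 with the GC and length correction and 4 with that correction and the replicate block; the number called lower (25) was 22 to 26, but with the correction only 17 of the 25 falls were kept, RRP9 (0.24) and RRP12 (0.26) were called higher, and POLR1B, NOP58, UTP20, GNL3 and LTV1 made up the 22. Of the rises in U87, TAF1A, TAF1B, RIOK1 and SBDS were no longer called with only the groups compared. With no count filter TAF1A, TAF1B and RIOK1 were no longer called. For the difference between lines, 26 positive and 14 negative calls became 17 and 1 with the correction. They became 14 and 1 with correction and block. Lower calls between controls (19) became 11 with correction and block, a fit that there compared levels fitted for the first-numbered libraries, not group means. In U251 the single higher call became 2 with only the groups compared and 0 with correction and block. The 2 lower calls in U251 became 5 with library totals, DESeq2 or log2(FPKM + 1), 6 with log2(FPKM + 0.1), 4 with log2(FPKM + 1) and no filter, 7 with only the groups compared, 1 with the correction, and 0 with no count filter or with correction and block. The cause of these shifts was not tested.
Leaving out each library gave 1 to 2 higher and 0 to 6 lower calls in U251, 10 to 15 and 25 to 26 in U87, 22 to 26 and 12 to 16 for the difference, and 9 to 11 and 16 to 20 between controls.
Same-numbered libraries deviated together only weakly (correlations 0 to 0.04 in U251 and -0.01 to 0.05 in U87), so the numbers were not taken as pairs; not every library correlated best with its own number. With the replicate block, 3 genes were called in U251, 38 in U87 and 36 for the difference. Between controls 20 were called, but there the block fit compared levels fitted for the first-numbered libraries of each line. That is not a comparison of group means, so this count cannot be set beside the 28 calls without the block.
Single values of genes chosen by the rule changed sign as follows. With the GC and length correction, without and with the block, the values in U87 were MAF1 0.0179 and 0.0157, POLR2K -0.13 and -0.13, SBDS -0.0105 and -0.0186, and TTF1 -0.17 and -0.17. Of the other genes of the 49 in U87, NOP58 (-0.34), UTP20 (-0.26), GNL3 (-0.33), NOB1 (0.30), TAF1B (-0.14), WDR12 (-0.10), NOP2 (0.01), NOP16 (0.03), RRP1 (0.11) and BYSL (0.13) also turned with the correction. In U251 they were RRN3 0.13 and 0.12, NMD3 0.0101 and 0.00501, and TCOF1 -0.13 and -0.13. Between controls RRN3 gave -0.17 and -0.18 and PPAN, with correction and block, 0.33. Between controls the fits with the block compared levels fitted for the first-numbered libraries, not group means. The first U87 control library had 477 counts for PPAN and 459 for PPAN-P2RY11, and its part in the PPAN value was not tested. For the difference POLR1B gave 0.30 and 0.30. With no count filter UBTF (0.00542) and RRN3 (0.0112) turned in U251 and POLR1B (0.0316) for the difference, which was 0.00081 with log2(FPKM + 0.1). Leaving out each library gave, in U251, DKC1 -0.0422 to 0.0859, MYC -0.684 to 0.202, RRN3 -0.0471 to 0.0263, TCOF1 -0.0122 to 0.108 and UBTF -0.0536 to 0.0371. In U87 it gave MAX -0.172 to 0.372, MXI1 -0.165 to 0.916 and POLR1B -0.121 to 0.05, and for the difference POLR1B -0.14 to 0.0385.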
